A study of Homo sapiens with 12 samples.

Results

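The 42 genes described here serve protein folding in the endoplasmic reticulum (ER) and the integrated stress response, 2 linked programmes of protein quality control. They were chosen by name, matched to the gene symbols of the deposited expression table, and all 42 were among its 36433 symbols. All 42 also passed the filter on low values, which kept 13750 genes. The cells were HMEC-1, microvascular endothelial cells of human skin made immortal in culture. They were transfected by Lipofectamine RNAiMAX with 50 nM of a mimic of miR-126, of miR-143 or of miR-150, and in the controls with a scrambled RNA that targets no gene, and RNA was collected at 48 h from 3 libraries per group. A mimic is a synthetic double-stranded RNA that raises the level of a microRNA, and the title of the study refers to pathological angiogenesis of the retina. The scrambled group shares the transfection and the reagent with the mimic groups, and untransfected cells were not analysed here. All libraries come from 1 cell line, and whether each had its own culture is not stated in the labels, so a p-value here sets a difference against library-to-library spread that may be technical alone.

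Secreted and membrane proteins enter the ER through the SEC61 channel, are folded by chaperones such as BiP (HSPA5) and GRP94 (HSP90B1), pass through the calnexin and calreticulin cycle if they carry N-linked sugars, and are sent for degradation if they fail. The sensors IRE1 (ERN1), ATF6 and PERK (EIF2AK3) raise folding capacity when unfolded protein accumulates. PERK and related kinases also slow protein synthesis and favour translation of ATF4, a transcription factor that induces genes of amino acid synthesis and transport. ATF4 is thus controlled largely through its translation, which RNA levels do not show. Of the members, 25 make up the folding machinery (9 chaperones and their partners, 4 genes of the lectin cycle, 4 disulfide isomerases, 6 degradation genes and 2 channel subunits). The others are 4 sensor genes, 5 factors of the stress response, 6 genes of serine, asparagine and one-carbon metabolism, and 2 further targets of ATF4.

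The seeds of the microRNAs are shown because they define which transcripts a mimic could pair with. These are mature sequences from RefSeq (GRCh38.p14), with bases 2 to 8, the seed, in capitals. The labels do not name the arm of each mimic, and the usual guide arm is printed. A sequence of miR-150 was not used here.
hsa-miR-126-3p: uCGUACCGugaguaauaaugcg
hsa-miR-143-3p: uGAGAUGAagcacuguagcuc
The DNA match to the miR-126-3p seed, CGGTACG, occurred in the longest annotated 3' UTR of 0 of the 42 members, beside 0.298% of the 12429 tested genes with a 3' UTR. The match to the miR-143-3p seed, TCATCTC, occurred in 6 of 42 members (14.3%), beside 14.4% of tested genes. Those members were HYOU1, CALR, SEL1L, ERN1, EIF2AK3 and PPP1R15A. In the test described below, only EIF2AK3 and CALR of these passed with the miR-143 mimic. PDIA6, PHGDH and SHMT2, which also passed as lower, held no TCATCTC, and CALR was lower with miR-150 too. The windows of EIF2AK3 (chr2:88556907-88556913, minus strand) and CALR (chr19:12944201-12944207, plus strand), both lower with the miR-143 mimic, are printed with the match in capitals (GRCh38, GENCODE release 29).
EIF2AK3: cagtttaaTCATCTCacttgcta
CALR: cccttctcTCATCTCttagctcc
A further 7-mer, GGTTGTG, which an earlier scan of these same libraries had singled out, occurred in 5 of 42 members (11.9%), beside 10.3% of tested genes. They were CANX, DERL2, ATF6, ERN1 and MTHFD2. The 5p arms were searched as well. The miR-126-5p match, TAATAAT, occurred in 8 of 42 members (19.0%), beside 19.9% of tested genes. Those were DNAJB9, DNAJC3, CANX, UGGT1, PDIA3, SEC61A1, ATF6 and PSAT1. The miR-143-5p match, ACTGCAC, occurred in 6 of 42 (14.3%), beside 18.2%, namely UGGT1, SEL1L, SEC61A1, ATF6, PHGDH and MTHFD2. A match is a description of letters, and pairing at these places was not measured.

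Elements by which these programmes are known to be switched on were sought in the promoters. Promoter windows of RefSeq (GRCh38.p14), 250 bases before to 50 after the start site, were found for 38 of the 42 members and searched on both strands, and 28 of the 38 held none of the 3 elements. The ER stress element, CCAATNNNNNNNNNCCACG, bound by NF-Y together with ATF6, was present in 6 members, beside 0.0806% of all 27305 promoters in that table and 0.14% of the 9976 promoters of tested genes. The 6 were HSPA5, HSP90B1 (with 2 copies), CRELD2, CANX, CALR and XBP1. These members did not move as a group, as the values show, and their copies are printed with the fixed letters in capitals, in the orientation of the element.
HSPA5, chr9:125241391-125241409: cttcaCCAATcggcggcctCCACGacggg
HSP90B1, chr12:103930216-103930234: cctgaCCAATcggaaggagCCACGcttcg
HSP90B1, chr12:103930321-103930339: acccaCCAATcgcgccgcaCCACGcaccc
CRELD2, chr22:49918554-49918572: atggcCCAATccgagttcgCCACGagagg
CANX, chr5:179698778-179698796: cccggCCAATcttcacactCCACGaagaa
CALR, chr19:12938384-12938402: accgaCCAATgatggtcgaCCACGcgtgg
XBP1, chr22:28800603-28800621: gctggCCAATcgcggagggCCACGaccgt
The XBP1 element TGACGTGG occurred in HYOU1 alone among the members, beside 0.795% of all promoters and 0.942% of those of tested genes. The ATF4 element TGATGNAA, a composite of C/EBP and ATF half-sites, occurred in HERPUD1, CHAC1 and ASNS, beside 3.67% of all promoters and 1.66% of those of tested genes. The copy of ASNS, the asparagine synthetase gene, is the textbook example.
ASNS, chr7:97872469-97872476: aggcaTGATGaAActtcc

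Values are TPM, which give each transcript per length and per total of its library and hold no read totals, so depth is unknown and no counting interval can be given. All 10 endothelial markers were detected in all 12 libraries, from CLDN5 at 3.88 to 24.3 TPM and VWF at 13 to 35.5 TPM to PECAM1 at 166 to 688 TPM and EGFL7 at 250.3 to 1139 TPM. Of markers of other cells, KRT5 of epithelium was listed at 0 in 11 libraries and CD3E of T cells in 9. CD68, a lysosomal marker of macrophages, was at 25.5 to 66.7 TPM, and COL1A1, ACTA2 and RGS5 of fibroblasts and pericytes were at 5.13 to 32, 2.38 to 28.6 and 7.44 to 12.8 TPM. Replicate 4 of the miR-143 group and replicate 4 of the miR-150 group stood apart from the rest by transcript length: deviations from the mean of all libraries correlated with length across genes at Spearman -0.398 and -0.547, against -0.00843 to 0.289 in the other 10. Replicate 3 of each group had the highest level of interferon-stimulated genes in its group, and the median of 16 such genes was 2.51, 1.56 and 0.33 higher on the log2 scale with miR-126, miR-143 and miR-150 than in the controls. Of these 16 genes, 1, 0 and 0 passed the test described here. With a block on replicate number 16, 15 and 6 passed, where 17%, 12.9% and 12.3% of all tested genes did. In bulk RNA, fewer cells of a kind and less RNA per cell cannot be told apart. Differences are on the log2(TPM + 1) scale, tested with limma over all 13750 genes, with n = 3 per group, and a gene passed at an adjusted p (Benjamini-Hochberg, separately for each comparison) under 0.05. The 3 comparisons with the scrambled control share its libraries, and the comparisons between mimics reuse the same mimic libraries.

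In the fit without a block on replicate number, 12 of the 42 members changed against the control with at least 1 mimic. In that fit 30 passed in none of the 6 comparisons. Some of those 30 passed with the block, and they are named where they did. With miR-126, 1 member rose (CANX) and 1 fell (XBP1), against a background of 3.37% of all tested genes that rose and 1.73% that fell. With miR-143, 1 member rose (CANX) and 5 fell (CALR, PDIA6, EIF2AK3, PHGDH and SHMT2), against a background of 1.84% that rose and 1.48% that fell. With miR-150, 1 member rose (CANX) and 6 fell (HSP90B1, CALR, PDIA3, PDIA4, EDEM1 and MTHFD2), against a background of 1.08% that rose and 2.23% that fell. With a block on replicate number, 7 members (16.7%) passed for miR-126 against the control, where 17% of all tested genes did. For miR-143 and miR-150, where the pairing by number was less clear, 13 (31%) and 14 (33.3%) passed. Of all tested genes, 12.9% and 12.3% did. The split of all tested genes between higher and lower turned with the scaling for miR-126, from 464 higher and 238 lower to 354 and 547 with each library centred on its median gene and 482 and 547 with quantile normalization. For miR-150 it was 149 and 307, against 245 and 337 centred and 301 and 372 with quantile normalization. The map of log2 fold changes, from the fit without a block, shows CANX as the 1 member that passed with every mimic.

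**Figure D1:**
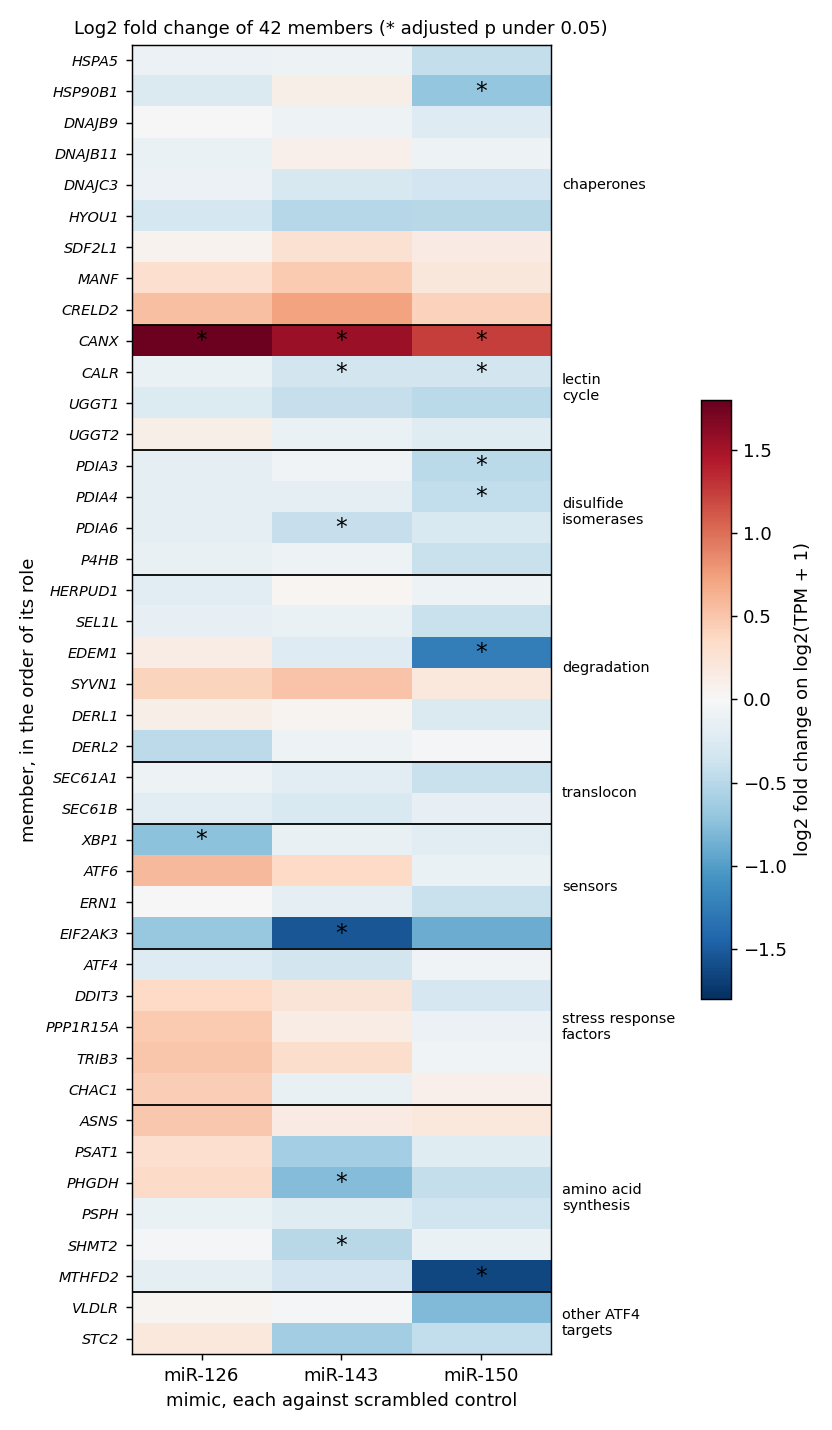
Log2 fold change on the log2(TPM + 1) scale of each of the 42 members (rows, ordered by role) with each mimic against the scrambled control (columns, 3 libraries per group). Colour gives the fold change, with red for higher and blue for lower in the mimic group, and an asterisk marks an adjusted p under 0.05 in limma; CANX carries it in all 3 columns and no other member in more than 2.

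The chaperones include HSPA5, the abundant Hsp70 of the ER that holds unfolded chains and keeps the sensors inactive. HSPA5 stood at 645, 751 and 642 TPM in control replicates 2, 3 and 4, at 583, 720.5 and 586 TPM with miR-126, at 603, 713 and 597 TPM with miR-143, and at 481, 567 and 470 TPM with miR-150. All miR-150 libraries lay below all controls, but the difference of -0.42 (SE 0.12) missed the threshold in limma (adjusted p = 0.0913). That difference passed with a block on replicate number. With miR-126 and miR-143 the HSPA5 values overlapped those of the controls, with differences of -0.11 (95% interval -0.38 to 0.16) and -0.09 (-0.36 to 0.18).

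HSP90B1 (chr12:103930107-103953645), the Hsp90 of the ER that folds integrins and Toll-like receptors, fell with miR-150. Its levels were 1129, 1003 and 1074 TPM in the controls and 627, 669 and 673 TPM with miR-150, lower by a log2 fold change of -0.70 (adjusted p = 0.000914 in limma, SE 0.08). It read 918, 844 and 901 TPM with miR-126 and 1159, 1090 and 1194 TPM with miR-143. The miR-150 libraries were the 3 lowest of the 12, and the miR-126 libraries came next, with neither set overlapping the controls. The miR-126 difference, -0.27 (SE 0.08), did not pass (adjusted p = 0.0899) but did in the fit blocked on replicate number (adjusted p = 0.0206) and without the 2 libraries that stood apart (0.0409). With each library centred on its median gene, the miR-150 difference was -0.57 and no longer passed (adjusted p = 0.0939).

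The other chaperones passed in no comparison in the fit without a block, although HYOU1 and MANF did under several alternatives. HYOU1, an exchange factor and holdase of the Hsp70 family, averaged 149 ± 8.93 TPM (SD, n = 3) in the controls, 120 ± 2.06 with miR-126, 105 ± 10.5 with miR-143 and 107 ± 23.4 with miR-150; its mimic libraries all lay below the controls, and its adjusted p was 0.285, 0.102 and 0.102. Centred on the median gene, its differences with miR-126 and miR-143 were -0.45 and -0.46 and passed (0.0169 and 0.0211), and both also passed without the 2 libraries that stood apart (0.0189 and 0.0159). CRELD2, a small ER stress-induced protein, differed by +0.53, +0.73 and +0.42 (SE 0.26, adjusted p = 0.282, 0.170 and 0.442). Its values were higher than the same-numbered control in every mimic library, and with the block the miR-126 difference passed (adjusted p = 0.00788). The CRELD2 differences with miR-143 and miR-150 passed with the block as well. MANF, a secreted ER stress protein, lay above all controls with miR-126 and miR-143, by 0.30 and 0.46 (SE 0.13, adjusted p = 0.226 and 0.0799), and both passed with the length trend removed (0.0334 and 0.0151). The J-domain partners of BiP were close to their control levels: DNAJB9 at 17.8 ± 1.1 TPM in the controls and 17.8 ± 1.14, 16.8 ± 3.56 and 15.2 ± 3.10 TPM with miR-126, miR-143 and miR-150, and DNAJB11 at 146 ± 1.27, then 134 ± 5.13, 155 ± 1.43 and 136 ± 9.39 TPM. DNAJC3, also an inhibitor of PERK, was at 34.9 ± 2.76 TPM in the controls and 28.4 to 32.3 TPM on average in the mimic groups. SDF2L1, a partner of the J-domain proteins, was at 27.6 ± 3.28 TPM in the controls and 28.7 to 33.7 TPM in the mimic groups.

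In the lectin cycle, CANX and CALR changed in opposite directions. CANX (chr5:179678628-179730925) encodes calnexin, the membrane lectin that retains sugar-bearing proteins for folding. Its levels were 155, 197 and 174 TPM in control replicates 2, 3 and 4, and 535, 678 and 585 TPM with miR-126. They were 640, 560 and 379 TPM with miR-143, and 455, 593 and 269 TPM with miR-150. Every mimic library lay above every control, and the lowest mimic values were those of the 2 libraries that stood apart by length. CANX rose by 1.77 with miR-126, 1.55 with miR-143 and 1.25 with miR-150 (SE 0.26, adjusted p = 0.00376, 0.00894 and 0.0256 in limma). Without those 2 libraries the rises were 1.77 for miR-126, 1.77 for miR-143 and 1.57 for miR-150, with adjusted p = 0.000179, 0.000639 and 0.000846.

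Differences between mimics in CANX did not pass, with +0.21 for miR-126 against miR-143 (95% interval -0.36 to 0.79), +0.51 for miR-126 against miR-150 (-0.06 to 1.09) and +0.30 for miR-143 against miR-150 (-0.27 to 0.88). The rise with miR-143 missed the threshold without control replicate 2 (adjusted p = 0.0512). That with miR-150 missed it without control replicate 2, 3 or 4 (0.121, 0.051 and 0.108) or miR-150 replicate 2 or 3 (0.0797 and 0.0529). The symbol covers 2 Ensembl genes with 19 transcripts each in the table. Their TPM were close: 82.7, 103 and 84.4 for the gene on chromosome 5 and 72.6, 94.3 and 89.3 for the other in the controls, and 288, 322 and 292 against 246, 356 and 293 with miR-126. kallisto may split reads between such near-identical copies, and the sum over both is used here.

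CALR (chr19:12938578-12944489), calreticulin, is the soluble counterpart of CANX and a calcium store. It stood at 1501, 1438 and 1457 TPM in the controls, 1321, 1394 and 1345 TPM with miR-126, 1086, 1233 and 1172 TPM with miR-143 and 1150, 1149 and 1189 TPM with miR-150. All mimic libraries lay below all controls. CALR fell by 0.33 with both miR-143 (SE 0.08, adjusted p = 0.0385 in limma) and miR-150 (SE 0.08, adjusted p = 0.0392), and the miR-126 difference of -0.11 did not pass (adjusted p = 0.466). Both calls were narrow. Leaving out 1 library ended each call in 10 of 12 fits, up to adjusted p = 0.167 and 0.168 without control replicate 2; the exceptions were miR-150 replicates 3 and 4 for miR-143, and miR-143 replicate 2 and miR-150 replicate 4 for miR-150. Centred on the median gene the differences were -0.28 and -0.21 and neither passed (adjusted p = 0.423 and 0.584), while with quantile normalization both did (0.0116 and 0.0184). UGGT1, the enzyme that returns misfolded glycoproteins to the cycle, averaged 60.3 ± 4.63 TPM in the controls and 51.4 ± 11.3, 46.7 ± 15.3 and 46.9 ± 21.8 TPM with miR-126, miR-143 and miR-150, with overlapping values, and its paralogue UGGT2 averaged 29.1 ± 1.63 TPM and 25.6 to 31.4 TPM.

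**Figure D2:**
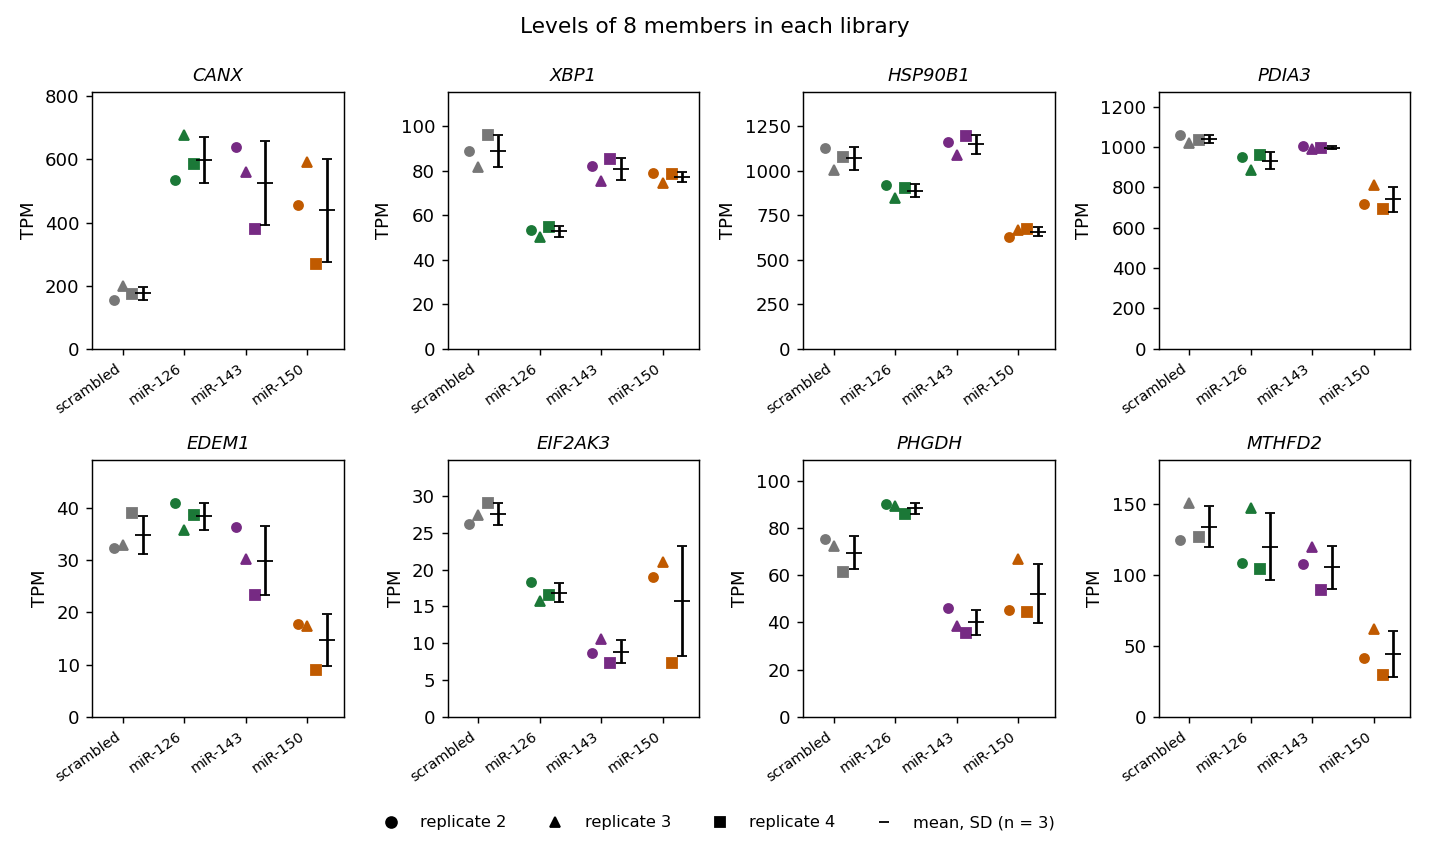
TPM of 8 of the members that changed (panels) in each library, by group on the horizontal axis; symbols mark the replicate number, and the bar gives the mean with the SD (n = 3). CANX lies above the controls in all 9 mimic libraries, XBP1 is lowest with miR-126, and HSP90B1, PDIA3, EDEM1 and MTHFD2 are lowest with miR-150.

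The disulfide isomerases form and rearrange disulfide bonds in the ER, and 2 of the 4 fell with miR-150. PDIA3, which works with calnexin and calreticulin, stood at 1061, 1021 and 1035 TPM in the controls and 720, 811 and 694 TPM with miR-150 (log2 fold change -0.49, SE 0.08, adjusted p = 0.0083 in limma). The miR-150 libraries were the 3 lowest of the 12, below 952, 884 and 962 TPM with miR-126 and 1006, 990 and 995 TPM with miR-143. PDIA4 fell from 169, 174 and 172 TPM to 125.1, 138 and 115 TPM (-0.45, SE 0.10, adjusted p = 0.0294), again with no overlap. PDIA6, which also dampens the sensors, stood at 454, 398 and 462 TPM in the controls and 330, 312 and 341 TPM with miR-143 (-0.42, SE 0.09, adjusted p = 0.0359), below every control. P4HB, the archetypal isomerase and a subunit of prolyl hydroxylase, averaged 1032 ± 20.6 TPM in the controls and 790 ± 103 TPM with miR-150, all below the controls (-0.39, adjusted p = 0.0919). With a block on replicate number, all 4 isomerases passed as lower with miR-150, where 12.3% of all tested genes passed in either direction.

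Some fits without 1 library and the fit centred on the median gene ended these calls. PDIA3 with miR-150 missed the threshold without control replicate 2 or 4 (-0.47 and -0.49, adjusted p = 0.0517 and 0.0521), and PDIA4 without any control (0.113, 0.0882 and 0.128), miR-126 replicate 2 or 4 (0.0581 and 0.0519) or miR-150 replicate 2 or 4 (0.0796 and 0.0546). PDIA6 with miR-143 missed it in 8 of 12 such fits, up to 0.179 without control replicate 4, and passed without control replicate 3, miR-126 replicate 3 or miR-150 replicate 3 or 4. Centred on the median gene, PDIA3 and PDIA4 with miR-150 and PDIA6 with miR-143 were at -0.36, -0.32 and -0.36 and did not pass (adjusted p = 0.205, 0.169 and 0.284). With quantile normalization all 3 passed (0.00695, 0.0309 and 0.00968). The 2 most abundant PDIA3 transcripts are annotated as targets of nonsense-mediated decay and held 72.1% and 26.3% of its TPM, which shows how kallisto assigned the reads and not which protein was made.

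Among genes of ER-associated degradation, EDEM1 changed. EDEM1 (chr3:5187646-5219957) marks misfolded glycoproteins for removal by trimming mannose. It stood at 32.4, 33.0 and 39.1 TPM in the controls, 40.9, 35.7 and 38.6 TPM with miR-126, 36.4, 30.1 and 23.3 TPM with miR-143 and 17.7, 17.5 and 8.96 TPM with miR-150. The miR-150 libraries were the 3 lowest, and EDEM1 fell by 1.24 with miR-150 (SE 0.24, adjusted p = 0.0171 in limma). Without the 2 libraries that stood apart it also passed (adjusted p = 0.00428), as it did with the length trend removed (0.000904), and it missed the threshold without control replicate 2 or 4 (0.0615 and 0.0968). SEL1L, the scaffold of the HRD1 ligase, ranged from 15 TPM in miR-150 replicate 4 to 70.5 TPM in miR-143 replicate 2, with overlapping groups. SYVN1, the HRD1 ligase itself, lay above all controls with miR-126 and miR-143, by 0.40 and 0.51 (SE 0.20, adjusted p = 0.303 and 0.224), and both passed without the 2 libraries that stood apart (0.0481 and 0.0245). DERL2, a channel component, stood at 124, 95.5 and 121 TPM in the controls and 86.1, 74.9 and 82.9 TPM with miR-126, below every control. That difference of -0.47 (SE 0.13) passed with a block on replicate number (adjusted p = 0.00226) and not without it (0.0699), and without the 2 libraries that stood apart it passed (0.0422). DERL1 averaged 77.9 ± 5.29 TPM in the controls and 66.0 to 83.9 TPM in the mimic groups, and HERPUD1, an organiser of the degradation complex, 109 ± 2.88 TPM and 95.4 to 111 TPM.

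The channel subunits passed in no comparison without a block on replicate number. With it, SEC61A1 passed as lower with miR-150. SEC61A1, the pore, averaged 224 ± 14.1 TPM in the controls and 172 ± 30.6 TPM with miR-150 (-0.40, SE 0.13, adjusted p = 0.146), and SEC61B averaged 300 ± 16.4 TPM and 249 to 272 TPM in the mimic groups. Summed over the 25 folding genes, TPM came to 7737 ± 72.3 in the controls, 7493 ± 59.4 with miR-126, 7580 ± 135 with miR-143 and 6302 ± 391 with miR-150. The sum is dominated by abundant members such as CALR, HSP90B1, PDIA3 and P4HB. The median log2 fold change of the 25 was -0.11, -0.09 and -0.28 for miR-126, miR-143 and miR-150, beside 0.10, -0.04 and -0.11 over all tested genes. Without the 2 libraries that stood apart, the median for miR-150 was -0.07.

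Of the sensors, XBP1 and EIF2AK3 changed. XBP1 (chr22:28794555-28800597) encodes the transcription factor whose mRNA is cut by IRE1. It stood at 89.0, 81.5 and 96.0 TPM in the controls, 53.5, 50.0 and 54.9 TPM with miR-126, 82.3, 75.4 and 85.0 TPM with miR-143 and 78.8, 74.7 and 78.5 TPM with miR-150. The miR-126 libraries were the 3 lowest, well apart from the other 9. XBP1 fell by 0.74 with miR-126 (SE 0.10, adjusted p = 0.00244 in limma), and it passed in all 12 fits that left out 1 library (adjusted p up to 0.0218) and under each other alternative run. As given with the seeds, the longest annotated 3' UTR of XBP1 holds no CGGTACG.

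IRE1 removes a 26-base intron from XBP1 mRNA, and only the product encodes the active factor, XBP1s. Annotated transcripts without the intron held 25.5, 28.2 and 18.2 TPM in control replicates 2, 3 and 4, and 10.7, 12.6 and 12.8 TPM with miR-126. With miR-143 they held 18.9, 16.4 and 17.7 TPM, and with miR-150 20.8, 19.3 and 17.4 TPM. All miR-126 libraries lay below the others for these spliced transcripts. As a share of XBP1 TPM, spliced transcripts made up 28.7%, 34.6% and 19.0% in the controls and 20.1%, 25.2% and 23.3% with miR-126, which overlap. The mean shares were 27.4% ± 7.88, 22.9% ± 2.62, 21.8% ± 1.06 and 24.8% ± 2.32 (SD, n = 3) in the controls and with miR-126, miR-143 and miR-150. These are kallisto's assignments to transcripts that differ by few bases, without a test.

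**Figure D3:**
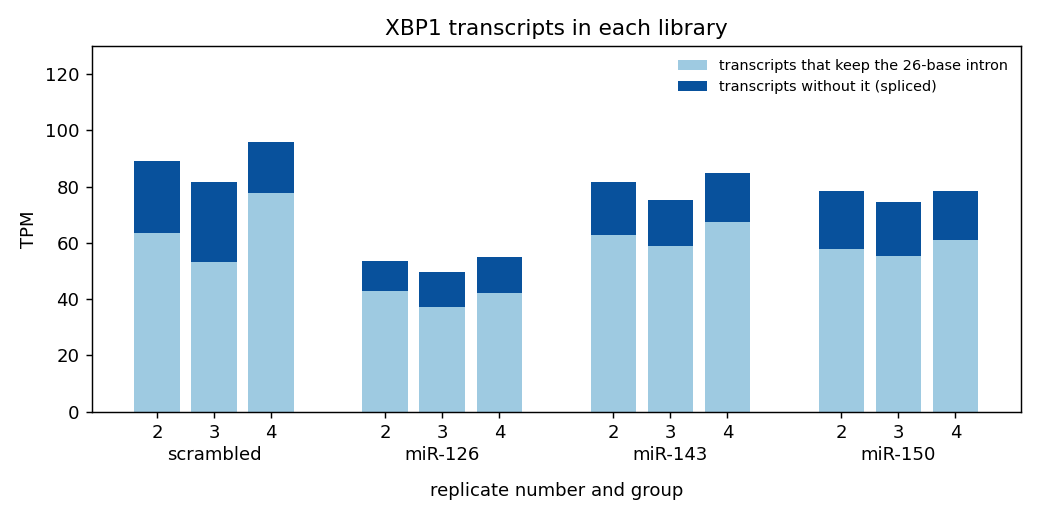
XBP1 TPM in each library (bars, by group and replicate number), divided into transcripts that keep the 26-base intron (light) and those without it (dark). Bars are shortest with miR-126, at 50.0 to 54.9 TPM, and the dark portion ranges from 19.0% to 34.6% within the controls alone.

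EIF2AK3 (chr2:88556741-88627576) encodes PERK, the kinase that links ER stress to the integrated stress response. It stood at 26.2, 27.4 and 29.1 TPM in the controls, 18.3, 15.8 and 16.5 TPM with miR-126, 8.65, 10.5 and 7.35 TPM with miR-143 and 19.0, 21.1 and 7.23 TPM with miR-150. All 9 mimic libraries lay below the controls. EIF2AK3 fell by 1.55 with miR-143 (SE 0.31, adjusted p = 0.0199 in limma), and the differences of -0.68 with miR-126 and -0.89 with miR-150 did not pass (adjusted p = 0.253 and 0.150). Between miR-143 and miR-126 the EIF2AK3 difference did not pass either (adjusted p = 0.183), nor did it between miR-143 and miR-150 (adjusted p = 0.365). Without the 2 libraries that stood apart, the miR-126 difference from the control was -0.68 and passed (0.00616), as it did centred on the median gene (-0.81, 0.0416), with quantile normalization (-0.83, 0.0302) and on those groups alone (0.0106). Without those libraries EIF2AK3 was also lower with miR-143 than with miR-126, by a log2 fold of 0.76 (0.0137), and than with miR-150, at -0.99 (0.00938). The fall with miR-143 passed without the 2 libraries that stood apart (adjusted p = 0.000657). It missed the threshold without control replicate 2, 3 or 4 (0.0801, 0.053 and 0.0953) or miR-143 replicate 2 or 4 (0.0639 and 0.0879). Its 3' UTR holds the TCATCTC printed above, as do those of 14.4% of tested genes.

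ATF6, a membrane-bound factor freed by proteolysis, lay above all controls with miR-126 and miR-143, by 0.59 and 0.36 (SE 0.22, adjusted p = 0.170 and 0.465). The ATF6 difference with miR-126 passed with the length trend removed (+0.64, 0.00581), without the 2 libraries that stood apart (+0.59, 0.00853), with quantile normalization (+0.50, 0.0487) and on those groups alone (0.0111). That with miR-143 passed with the length trend removed (+0.54, 0.0176). ERN1, the gene of IRE1, was low throughout at 1.23 to 5.14 TPM, with overlapping groups.

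In the fit without a block, none of the 5 stress response factors passed against the control. ATF4 stood at 288, 230 and 290 TPM in control replicates 2, 3 and 4, at 240, 206 and 236 TPM with miR-126, at 210, 171 and 266 TPM with miR-143 and at 250, 220 and 308 TPM with miR-150. All 4 groups overlapped, and the differences were -0.24, -0.33 and -0.06 (SE 0.17, adjusted p = 0.509, 0.370 and 0.892). DDIT3, the pro-apoptotic factor CHOP, stood at 28.8, 37.8 and 27.1 TPM in the controls and 33.2, 58.2 and 32.6 TPM with miR-126 (+0.36, adjusted p = 0.555). TRIB3, a pseudokinase that restrains ATF4 signalling, stood at 24.3, 29.5 and 23.6 TPM in the controls and 32.5, 41.9 and 35.8 TPM with miR-126, all above the controls (+0.49, SE 0.15, adjusted p = 0.0880). PPP1R15A, the phosphatase subunit GADD34 that restores translation, stood at 43.2, 57.4 and 46.1 TPM in the controls and 57.3, 80.6 and 66.2 TPM with miR-126 (+0.46, SE 0.19, adjusted p = 0.196). With a block on replicate number, TRIB3 and PPP1R15A passed for miR-126 (adjusted p = 0.00544 and 0.00453). The block also called ATF4 lower and TRIB3 higher with miR-143, where the pairing by number was less clear. CHAC1, which degrades glutathione, was at 3.33 ± 0.529 TPM in the controls and 4.91 ± 1.04, 3.0 ± 0.868 and 3.63 ± 0.718 TPM with miR-126, miR-143 and miR-150.

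Of the 6 amino acid genes, 2 fell with miR-143 (PHGDH and SHMT2) and 1 with miR-150 (MTHFD2). With each of these mimics 5 of the 6 lay below 0 on the log2 scale, beside 7634 and 8691 of all 13750 tested genes. PHGDH (chr1:119648411-119744226), the first enzyme of serine synthesis, stood at 75.2, 72.2 and 61.6 TPM in the controls, 90.1, 89.5 and 85.9 TPM with miR-126, 46, 38.7 and 35.5 TPM with miR-143 and 45.4, 66.8 and 44.5 TPM with miR-150. The miR-126 libraries were the 3 highest of the 12, and all miR-143 libraries lay below all controls. PHGDH fell by 0.79 with miR-143 (SE 0.16, adjusted p = 0.025 in limma), and the miR-126 difference of +0.35 did not pass (adjusted p = 0.275). The fall missed the threshold without control replicate 2, 3 or 4 (0.120, 0.0768 and 0.0598) or miR-143 replicate 3 or 4 (0.0788 and 0.108).

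SHMT2, the mitochondrial enzyme that passes a carbon from serine to folate, stood at 137, 145 and 132 TPM in the controls and 94.4, 103 and 94.3 TPM with miR-143. Every miR-143 library lay below every control, and SHMT2 fell by 0.50 (SE 0.11, adjusted p = 0.0311 in limma). It averaged 137 ± 11.5 TPM with miR-126 and 128 ± 14.7 TPM with miR-150. The call was lost in 8 of 12 fits that left out 1 library, up to adjusted p = 0.120 without miR-143 replicate 4, and held without miR-126 replicate 3 or any miR-150 library; centred on the median gene it was -0.45 and did not pass (0.0993).

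MTHFD2 (chr2:74198562-74217565) acts next to SHMT2 in mitochondrial folate metabolism. It stood at 124, 151 and 127 TPM in the controls, 108, 147 and 104 TPM with miR-126, 108, 119 and 89.3 TPM with miR-143 and 41.5, 61.8 and 29.4 TPM with miR-150. The miR-150 libraries were the 3 lowest, with no overlap with any other group. MTHFD2 fell by 1.63 with miR-150 (SE 0.23, adjusted p = 0.00351 in limma) and passed in all 12 fits that left out 1 library (adjusted p up to 0.0202). Without the 2 libraries that stood apart it was -1.38 (adjusted p = 0.00509). A fit on the control and miR-150 libraries alone gave adjusted p = 0.0562. The longest 3' UTR of MTHFD2 holds 1 GGTTGTG, printed with the match in capitals (GRCh38, chr2:74215934-74215940, plus strand), as does that of CANX, which rose (chr5:179728876-179728882, plus strand). These 3' UTRs belong to minor transcripts. MTHFD2-201 held 11.5% of the TPM of its gene, and CANX-202 averaged 18.4 TPM over the libraries.
MTHFD2: tcacaacaGGTTGTGccaagcta
CANX: aacataatGGTTGTGaaatgtaa

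The other amino acid genes passed in no comparison with the control without a block on replicate number. ASNS stood at 12.2, 20.7 and 10.2 TPM in the controls and at 19.4, 26.9 and 14.4 TPM with miR-126, which overlap (+0.48, SE 0.30, adjusted p = 0.417). PSAT1, the second enzyme of serine synthesis, averaged 47.0 ± 11.3 TPM in the controls and 58.2 ± 14.7, 31 ± 11 and 43.1 ± 21.7 TPM with miR-126, miR-143 and miR-150. PSPH, which completes serine synthesis, averaged 49.6 ± 1.38 TPM in the controls and 38.5 to 45.9 TPM in the mimic groups. VLDLR, a lipoprotein receptor, differed by -0.79 with miR-150 (SE 0.28, adjusted p = 0.161). That was the lowest difference from the control among members that passed in no comparison in the fit without a block. STC2, a secreted glycoprotein, varied from 5.82 to 26.2 TPM. The 6 amino acid genes summed to 453 ± 41.1 TPM in the controls, 469 ± 54.6 with miR-126, 332 ± 31.1 with miR-143 and 322 ± 70.5 with miR-150. Their median log2 fold changes were 0.14, -0.42 and -0.29.

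Set directly against each other, the mimics differed in 4, 6 and 3 members. Here the median of all tested genes was itself shifted, by 0.15 for miR-126 against miR-143 and by 0.22 for miR-126 against miR-150, so centring on the median gene bears on small differences. Between miR-126 and miR-143, PHGDH and SHMT2 were higher with miR-126, and HSP90B1 and XBP1 were lower, against a background of 1.46% of tested genes that were higher and 1.05% that were lower. The differences were +1.13 for PHGDH (SE 0.16, adjusted p = 0.00515), +0.48 for SHMT2 (SE 0.11, 0.0435), -0.37 for HSP90B1 (SE 0.08, 0.041) and -0.61 for XBP1 (SE 0.10, 0.0108), in limma. None of the 4 genes overlapped between these groups. Of all 13750 tested genes, 2645 were higher and 848 lower with miR-126 without overlap. PHGDH passed in all 12 fits without 1 library, while XBP1 missed the threshold without miR-126 replicate 2 (0.0574) or miR-143 replicate 4 (0.0571). SHMT2 and HSP90B1 each held only without miR-150 replicate 3 or 4, reaching 0.164 and 0.166 without miR-143 replicate 4, and centred on the median gene they were +0.29 and -0.56 and did not pass (0.321 and 0.121). Of all tested genes, 201 were higher and 145 lower, against 156 and 282 centred and 210 and 282 with quantile normalization.

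With a block on replicate number, 9 members passed between miR-126 and miR-143, where 11% of all tested genes did. The 5 added were PDIA6, PPP1R15A, PSAT1 and STC2, higher with miR-126 by 0.26, 0.33, 0.92 and 0.81, and DERL2 at -0.38 (adjusted p = 0.0205, 0.0301, 0.0109, 0.00948 and 0.00895).

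Between miR-126 and miR-150, HSP90B1, PDIA3, EDEM1, PHGDH and MTHFD2 were higher with miR-126 and XBP1 was lower, against a background of 3.11% that were higher and 0.8% that were lower. The largest were MTHFD2 at +1.46 (SE 0.23, adjusted p = 0.00766 in limma) and EDEM1 at +1.38 (SE 0.24, 0.0106), followed by PHGDH at +0.77 (SE 0.16, 0.0255). HSP90B1 differed by +0.44 (SE 0.08, 0.0156), PDIA3 by +0.33 (SE 0.08, 0.0472) and XBP1 by -0.54 (SE 0.10, 0.0144). MTHFD2 alone passed in all 12 fits without 1 library. EDEM1 missed the threshold without miR-126 replicate 2 or 4 (0.0599 and 0.0549), XBP1 without miR-126 replicate 2, 3 or 4 (0.0675, 0.0527 and 0.0557), and HSP90B1 without miR-126 replicate 2 or 4 (0.0901 and 0.0822) or miR-150 replicate 2 (0.0548). PHGDH missed it without miR-126 replicate 2, 3 or 4 (0.107, 0.0694 and 0.0911) or miR-150 replicate 2 or 4 (0.077 and 0.061), and PDIA3 without any library except miR-150 replicate 3, up to 0.183. Centred on the median gene, HSP90B1, PDIA3 and PHGDH were at +0.17, +0.07 and +0.51 and did not pass (0.640, 0.849 and 0.0812), and PDIA3 did not pass without the 2 libraries that stood apart (+0.29, 0.070). The split of all tested genes reversed with the scaling, from 427 higher and 110 lower to 224 and 329 centred and 283 and 330 with quantile normalization.

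In that comparison 16 members passed with a block on replicate number, where 18.9% of all tested genes did. Those added on the higher side with miR-126 were HSPA5, CALR and PDIA4 among the folding genes (+0.31, +0.22 and +0.28), ATF6 (+0.70), DDIT3, PPP1R15A and TRIB3 among the stress factors (+0.66, +0.57 and +0.56), and VLDLR and STC2 (+0.83 and +0.64). Their adjusted p ran from 0.00215 for PPP1R15A to 0.0373 for CALR. DERL2 was added on the lower side, at -0.44 (adjusted p = 0.00357).

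Between miR-143 and miR-150, HSP90B1, PDIA3 and MTHFD2 were higher with miR-143 and no member was lower, against a background of 1.59% that were higher and 0.604% that were lower. HSP90B1 differed by +0.81 (SE 0.08, adjusted p = 0.000798 in limma) and passed in all 12 fits without 1 library, but centred on the median gene it was +0.73 and did not pass (0.0526). MTHFD2 differed by +1.29 (SE 0.23, 0.0161) and missed the threshold without miR-143 replicate 2 or 3 (0.0712 and 0.0649) or miR-150 replicate 2 (0.0623). PDIA3 differed by +0.43 (SE 0.08, 0.0204) and missed it without miR-143 replicate 2, 3 or 4 (0.0818, 0.0655 and 0.0773), miR-150 replicate 2 (0.0818) or both libraries that stood apart (+0.38, 0.0588), and centred on the median gene (+0.35, 0.292). EDEM1, higher with miR-143, passed centred on the median gene (+0.93, 0.00651), with quantile normalization (+0.92, 0.0055), with the length trend removed (+0.97, 0.00211) and without the 2 libraries (+0.88, 0.0147). Of all tested genes, 218 were higher and 83 lower, against 198 and 126 centred and 238 and 167 with quantile normalization. With the block 10 members passed, where 9.75% of all tested genes did. The 7 added were HSPA5, PDIA4, EDEM1, DDIT3, TRIB3 and VLDLR, higher with miR-143 by 0.33, 0.29, 1.01, 0.54, 0.38 and 0.75, and SHMT2, lower at -0.38.

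Members also varied with the replicate number. In replicate 3 of each of the 4 groups, 13 of the 42 members (31%) had their highest value of the group, beside 18.9% of all tested genes. They were HSPA5, DNAJB9 and PDIA4 of the folding genes, DDIT3, PPP1R15A, TRIB3 and CHAC1 of the 5 stress factors, ASNS, PSAT1, SHMT2 and MTHFD2 of the 6 amino acid genes, and VLDLR and STC2. ATF4 itself had its lowest value in replicate 3 of each group, as did CRELD2, PDIA6, DERL2 and XBP1 (11.9% of members, beside 9.43% of tested genes). In replicate 2, 0 members were highest in each group, beside 3.99% of tested genes, and in replicate 4 also 0, beside 1.72%. UGGT2, ASNS, PHGDH and VLDLR were lowest in replicate 4 of each group (9.52% of members, beside 9.61% of tested genes), and PPP1R15A in replicate 2 (2.38%, beside 1.14%).

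STC2 in replicate 3 of the miR-126 group reached 26.2 TPM, and the group averaged 16.1 ± 8.80 TPM. DDIT3 was at 58.2 TPM in that library, and in control replicate 3, at 37.8 TPM, exceeded miR-126 replicates 2 and 4. The mean level of the 16 interferon-stimulated genes also was highest in replicate 3 of each group, at 5.99 on the log2 scale in the controls against 3.49 and 3.32 in replicates 2 and 4, and at 8.34 with miR-126 against 6.21 and 5.72. Its part in the pattern was not tested, and the labels do not say what the number marks.

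**Figure D4:**
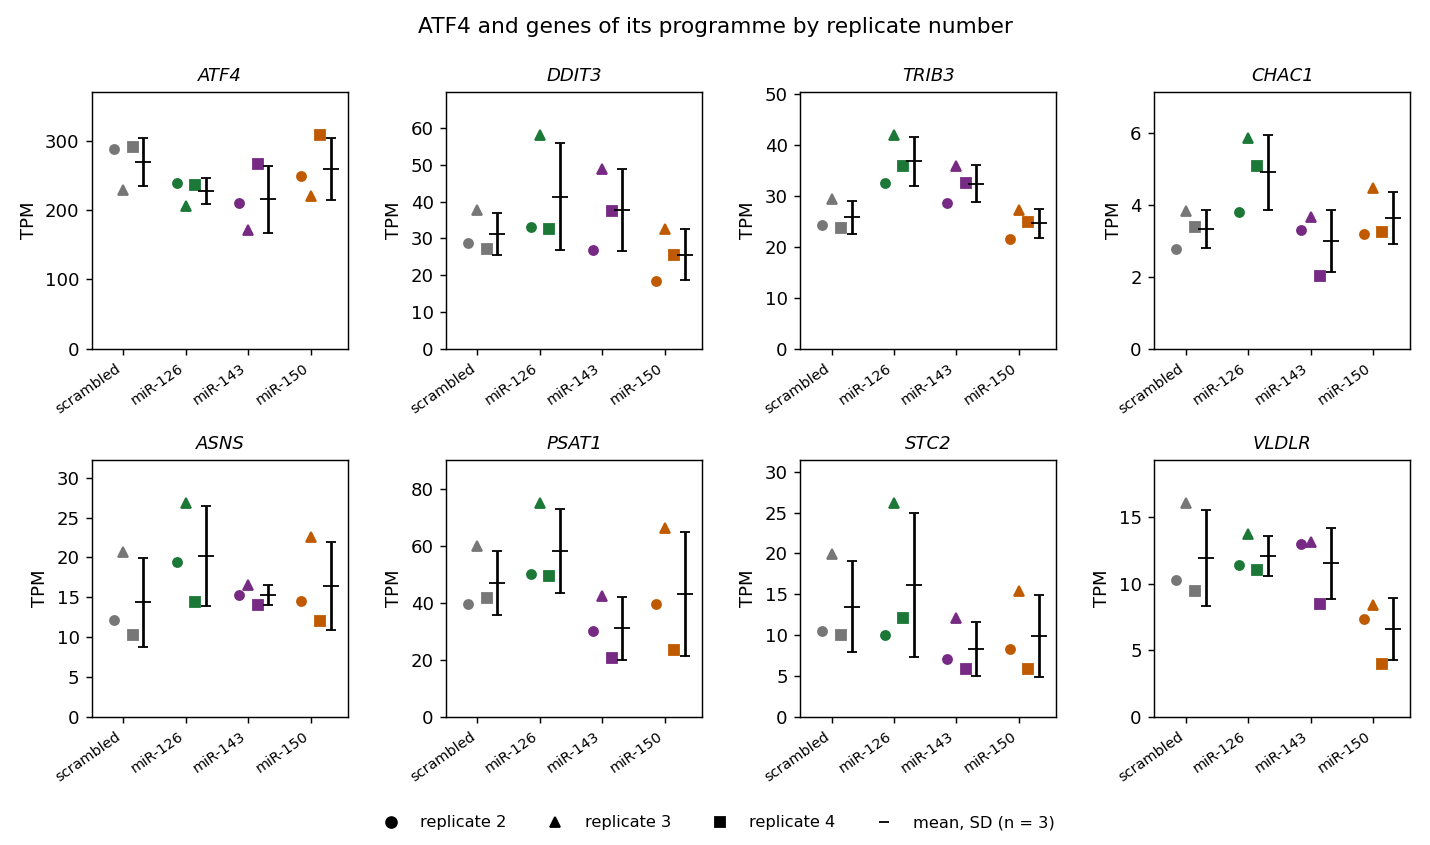
TPM of ATF4 and 7 genes of its programme (panels) in each library by group; triangles mark replicate 3, and the bar gives the mean with the SD (n = 3). Triangles are the highest symbol of each group for the 7 genes and the lowest for ATF4, for which replicate 3 ranges from 171 to 230 TPM.

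Members varied with transcript length as well. Across members, the deviation from the mean of all libraries correlated with length at Spearman -0.791 in miR-150 replicate 4 (n = 42 genes of 1 library). Across all genes the value there was -0.547. In miR-143 replicate 4 the correlation was -0.581 across members, beside -0.398 across all genes. In miR-150 replicate 4, SEL1L (mean transcript length 6040 bases) was at 15 TPM, against 55.3 and 53.4 TPM in replicates 2 and 3. UGGT1 (6984 bases) was at 21.9 TPM against 56.6 and 62.1 TPM, and ATF6 (7409 bases) at 17.8 TPM against 34.7 and 34.2 TPM. EIF2AK3 (3459 bases) was at 7.23 TPM against 19.0 and 21.1 TPM. HSPA5 (3908 bases) changed less, at 470 TPM against 481 and 567 TPM. The short members SDF2L1 (863 bases) and CRELD2 (1384 bases) were higher in that library than in the other miR-150 libraries. Of the 28 differences that passed over all 6 comparisons, 25 passed without these 2 libraries and 28 with the length trend removed. RNA quality was not measured in the files, and its part was not tested.

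**Figure D5:**
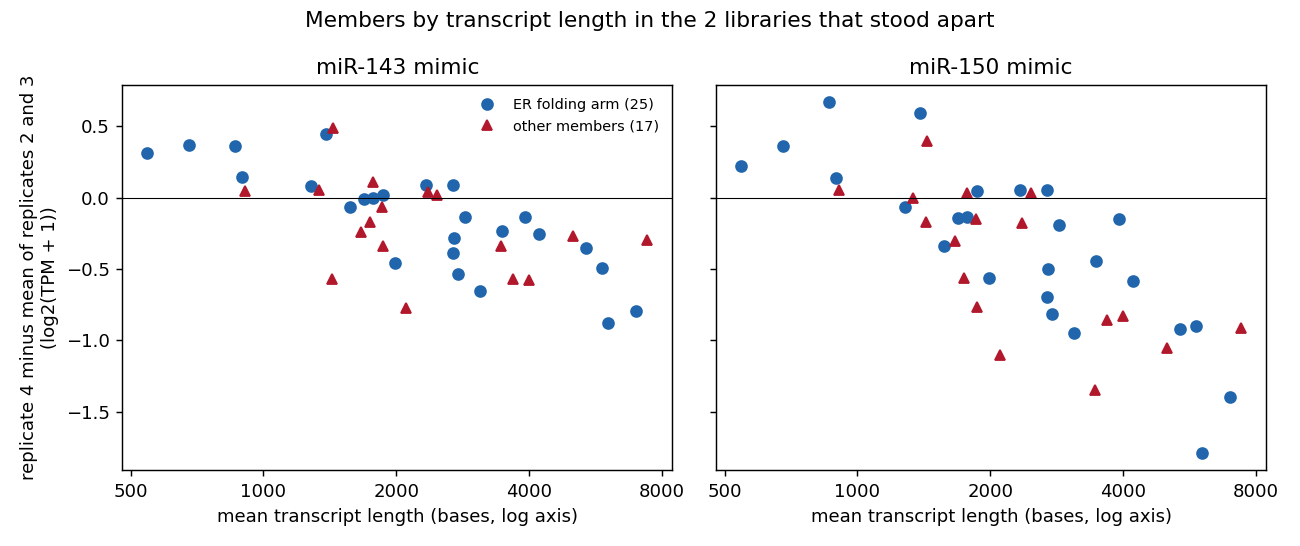
Replicate 4 minus the mean of replicates 2 and 3 on the log2(TPM + 1) scale (vertical axis) for each of the 42 members against its mean transcript length in bases (log axis), for miR-143 (left) and miR-150 (right); circles are the 25 folding genes and triangles the other 17 members. Points go down to the right in both panels, further with miR-150, where SEL1L at 6040 bases is the lowest.

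Other genes of the same pathways come from lists wider than the 42 members. Of 38 further ER genes, 1 rose and 2 fell with miR-126, 1 rose and 1 fell with miR-143, and 1 rose and 2 fell with miR-150. In either direction that is 7.89%, 5.26% and 7.89% of the list, beside 5.11%, 3.32% and 3.32% of all tested genes. SERP1, which stabilises membrane proteins during stress, rose with each mimic, from 51.0 ± 2.09 TPM to 86.0 ± 4.82 with miR-126, 93.6 ± 3.70 with miR-143 and 87.1 ± 1.24 with miR-150 (+0.74, +0.86 and +0.76, SE 0.09, adjusted p = 0.00131, 0.000655 and 0.00104 in limma). TXNDC5, an isomerase abundant in endothelium, fell by 1.53 with miR-126, from 560 ± 140 to 196 ± 60.0 TPM (SE 0.31, adjusted p = 0.0167). SSR3 of the translocon fell by 0.37 with miR-126 and by 0.47 with miR-143, and SPCS2 of the signal peptidase and KDELR2, which retrieves ER proteins, fell by 0.68 and 0.62 with miR-150. Of 35 further genes of the integrated stress response, 0 passed in limma against the control with any mimic, while 13, 10 and 7 had an unadjusted p under 0.05 for miR-126, miR-143 and miR-150. The share of all tested genes at that unadjusted level was not counted, so these numbers have no background beside them. With a block on replicate number, 4 of the ER genes were higher and 7 lower with miR-126 than in the controls, and 10 of the stress response genes were higher and 4 lower. Those are 28.9% and 40% of the lists, where 17% of all tested genes passed.

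Between mimics, 4 of those 35 passed. They were 2.86% of the list for miR-126 against miR-143, 5.71% for miR-126 against miR-150 and 2.86% for miR-143 against miR-150. Of all tested genes, 2.52%, 3.91% and 2.19% passed. The amino acid transporters SLC1A5 and SLC7A5 were lower with miR-126, at -0.74 against miR-143 and -1.18 against miR-150 respectively. CTH, of cysteine synthesis, was higher with miR-126 than with miR-150 by 1.37, and SLC7A11, the cystine transporter, was higher with miR-143 than with miR-150 by 1.64. Blocked on the number, 3 were higher and 2 lower for miR-126 against miR-143, and 10 were higher and 2 lower for miR-126 against miR-150. Those are 14.3% and 34.3% of the 35, where 11% and 18.9% of all tested genes passed.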

How the data were processed

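RNA sequencing of 12 libraries was used as deposited: TPM for 187626 transcripts, which the authors obtained from kallisto, per the submitters' processing notes. FastQC, sleuth and the build GRCh38 (hg38) are named there too. Neither their versions nor the transcript annotation is given in the sources used here. TPM hold no read totals, so only the spread between libraries measures precision. They were summed per gene symbol (171 transcripts without a symbol left out), and the 13750 of 36433 symbols that reached 1 TPM in 3 or more libraries were tested with limma 3.58.1 in R 4.3.3 on log2(TPM + 1), with group as the only term, over all 12 libraries and adjusted by Benjamini-Hochberg (threshold 0.05). Tables and figures used Python 3.11.15. Transcript lengths and 3' UTRs were taken from GENCODE release 29, which held 90.6% of the transcripts. Every member is named. The members and lists were chosen with earlier results of these data known.

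The fitting script was tested on data simulated without correlation between same-numbered libraries. For miR-126, miR-143 and miR-150 against the control it recovered 55, 71 and 62 of 100 changes of 1 on the log2 scale. Of 100 changes of 2 it recovered 96, 94 and 89, and 5, 14 and 13 unchanged genes passed. Real differences of 1 or less could thus be missed. Residuals correlated between same-numbered libraries: for replicates 2, 3 and 4 the values were 0.289, 0.634 and 0.401 (miR-126, control), 0.321, 0.664 and 0.365 (miR-126, miR-143), 0.291, 0.547 and 0.285 (miR-126, miR-150), and 0.586, 0.634 and 0.737 (miR-143, miR-150). The numbers, which come from the labels, were therefore taken to pair these libraries, and a fit blocked on the number stands beside those results where it changed them. Alternatives were a pseudocount of 0.1, no filter, the block, centring on the median gene, removal of the length trend, leaving out each library, and fits on the groups compared. Quantile normalization and leaving out the 2 libraries that stood apart were added after seeing the data.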

Additional observations from a re-analysis of the deposited data

How the results depend on the processing

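Of the 28 differences in members that passed, 0 changed sign under any alternative run, and 7 passed in every fit that left out 1 library. With single changes, 28 passed with the replicate block, the length trend removed or a pseudocount of 0.1, 27 with quantile normalization, 25 without the 2 libraries that stood apart, 22 without a filter, 14 centred on the median gene and 8 in fits on the groups compared alone. The comparisons are named here by their numbers, 126, 143 and 150, against the control or each other; causes were not tested.

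Members that passed numbered 2 for 126 against the control, and 7 with the block, 4 centred, 4 with the length trend removed, 7 in the fit on those groups alone, 9 without the 2 libraries, 4 with quantile normalization, and 2 to 5 without 1 library. For 143 against the control they numbered 6, with 13 under the replicate block, 3 on those groups alone and 0 to 8 without 1 library. For 150 against the control they numbered 7, with 14 under the block, 3 centred, 1 on those groups alone and 2 to 7. For 126 against 143 they numbered 4, with 2 without a filter, 9 under the block, 2 centred, 2 on those groups alone and 1 to 5. For 126 against 150 they numbered 6, with 16 under the block, 3 centred, 0 on those groups alone (limma, 11 at an unadjusted p under 0.05) and 1 to 6. For 143 against 150 they numbered 3, with 10 under the block, 5 with the length trend removed, 0 on those groups alone (limma, 7 at an unadjusted p under 0.05), 5 with quantile normalization and 1 to 4. No share of all tested genes was counted beside the numbers at an unadjusted p.

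All genes that passed numbered 702 for 126 against the control, with 2331 under the block, 1091 with the length trend removed, 1726 on those groups alone, 1840 without the 2 libraries and 214 to 1368 without 1 library. For 143 against the control they numbered 457, then 1775, 729, 294 and 710, with 764 after quantile normalization and 139 to 975 without 1 library. For 150 against the control they numbered 456, with 1694 under the block, 63 on those groups alone and 125 to 554. For 126 against 143 they numbered 346, then 1515, 584, 201 and 581, and 77 to 808. For 126 against 150 they numbered 537, with 2599, 920 and 24, and 125 to 719. For 143 against 150 they numbered 301, with 1340, 497 and 4, and 127 to 354.

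The median log2 fold change of the 25 folding genes, centred, was -0.25 for 126 and -0.15 for 150 against the control, -0.20 for 126 against 143 and -0.0235 for 126 against 150, where quantile normalization gave 0.0614; without the 2 libraries it was -0.0728 for 150. The amino acid median for 126 against 150, centred, was 0.14. Without 1 library, the folding median ran from -0.34 to -0.0728 for 150 against the control and from 0.0878 to 0.29 for 143 against 150, and the amino acid median from 0.20 to 0.71 for 126 against 150 and from -0.33 to 0.0612 for 143 against 150. Residuals of same-numbered libraries of 143 and the control correlated at 0.0438, 0.650 and 0.174 in replicates 2, 3 and 4. For 150 and the control the values were 0.0726, 0.604 and 0.0747. High values in replicate 3 alone left the pairing by number unclear, so the members that the block added for 143 and 150 are listed together here. The members it added for 143 were CRELD2, MANF and TRIB3, higher, and ATF4, HYOU1, PSAT1 and STC2, lower. For 150 they were CRELD2, higher, and HSPA5, HYOU1, P4HB, PDIA6, SEC61A1 and VLDLR, lower. TPM limit this work in that no counting error could be set.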
